A study of Mus musculus with 8 samples.

Results

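The WT-only regions are stretches of mRNA that held an m6A peak in the peak lists of both wild-type (WT) mice and in neither list of the *Mettl3*-deficient (KO) mice. Bone marrow-derived macrophages (BMDMs) of 2 WT and 2 KO mice had been profiled by m6A-methylated RNA immunoprecipitation sequencing (MeRIP-Seq), an assay that enriches fragments carrying m6A with an antibody before sequencing and reads the input RNA alongside. Each mouse has 1 list, called WT-1 and WT-2 for one genotype, KO-1 and KO-2 for the other. Peaks of the 4 lists that shared 1 bp or more of a strand were joined into a region, and 410 of the 12350 merged regions were chosen as WT-only by the presence and absence of peaks. WT mice were *Mettl3* fl/fl Lyz2 +/+ and KO mice *Mettl3* fl/fl Lyz2 cre/+, so both genotypes carried the floxed allele, and the deletion was driven by Cre from *Lyz2*, a gene of the myeloid lineage. The C57BL/6 mice were 8 weeks old, and bone marrow was cultured for 7 days with 40 ng/mL M-CSF, the growth factor that turns marrow progenitors into macrophages. Deletion by Lyz2-Cre is incomplete, so part of the *Mettl3* transcript remains in the KO cells.

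METTL3 is the catalytic subunit of the nuclear complex that writes m6A on mRNA, together with METTL14 and adaptor proteins such as WTAP and ZC3H13. The mark is placed mostly in a short consensus around GGAC, in long internal exons, near stop codons and in 3′-UTRs, and reader proteins that bind it alter the translation, splicing or decay of the mRNA. In macrophages, loss of m6A has been linked to altered inflammatory signalling and polarization.

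The lists give a position, a strand and the score of a peak caller, and no read counts. How deeply each library was sequenced is therefore unknown, and a region without a listed peak need not lack m6A. Less m6A, less of the RNA and fewer reads at a position cannot be told apart. *Mettl3* itself had no peak in any list, so the genotypes could not be checked on the deleted gene. Of 10 macrophage markers, 4 had a peak in any list, among them *Cd14*, *Mertk* and *Fcgr1*, and the other 6, among them *Csf1r* and *Adgre1*, had none, which does not show that their transcripts were lacking. Of 48 markers of other cell types, 12 had a peak in any list, 7 of them in the list of WT-1, 3 in that of WT-2, 5 in that of KO-1 and 4 in that of KO-2. Over all 21951 protein-coding genes, 7069 had a peak in any list, and the marker counts were not tested against that share. WT-1 had 4 peaks on chromosome Y and the other lists 0, the labels used here give no sex, and no WT-only region lay on that chromosome.

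The sequences of coding regions are shown first, because they hold the internal coding regions of *Zc3h13* and *Rbm33*, which tied at the same high score in both WT lists, and coding regions of signalling and mRNA decay genes. Each is a window of 121 bases of the CDS around the GGAC nearest to the middle of the bases shared by the WT-1 and WT-2 peaks, read from GRCm38 on the transcript strand, with every GGAC in capitals.
Zc3h13, chr14:75331909-75332029, plus strand: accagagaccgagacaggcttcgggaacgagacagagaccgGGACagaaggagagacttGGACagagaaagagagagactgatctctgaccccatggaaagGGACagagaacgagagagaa
Rbm33, chr5:28352491-28352611, plus strand: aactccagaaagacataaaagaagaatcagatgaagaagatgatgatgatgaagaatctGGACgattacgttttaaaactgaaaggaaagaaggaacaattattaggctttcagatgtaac
Birc3, chr9:7860662-7860782, minus strand: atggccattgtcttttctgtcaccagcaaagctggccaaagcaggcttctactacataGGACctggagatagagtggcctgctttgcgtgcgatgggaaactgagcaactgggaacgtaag
Tob1, chr11:94213922-94214042, plus strand: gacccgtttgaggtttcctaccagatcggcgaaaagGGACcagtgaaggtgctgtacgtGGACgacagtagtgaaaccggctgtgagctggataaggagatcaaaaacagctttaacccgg
Dusp7, chr9:106373775-106373895, plus strand: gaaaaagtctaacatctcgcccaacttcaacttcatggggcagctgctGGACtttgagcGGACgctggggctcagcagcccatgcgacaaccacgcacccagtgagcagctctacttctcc
The *Zc3h13* window held 3 copies of GGAC, and the bases shared by both WT peaks held 8. The windows of *Tob1* and *Dusp7* held 2 copies each, and those of *Rbm33* and *Birc3* 1 each, which was the only copy in the shared bases of these 2 regions.

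For regions around the stop codon or in the 3′-UTR, 30 bases around the GGAC nearest to the middle of the shared bases are given, for the high-scoring regions of *Mrps34* and *Ctsz* and for regions of receptor and signalling genes described further on.
Mrps34, chr17:24896107-24896136, plus strand: tgagtcatttgatGGACgagtgcctttgac
Ctsz, chr2:174427739-174427768, minus strand: aGGACcagagtgtGGACtgcatcccgagag
Pld1, chr3:28131836-28131865, plus strand: tcacctacccactGGACtccttcagagtgg
Fcgr1, chr3:96284246-96284275, minus strand: ccctgaaactgtgGGACcatggcatgcaac
Mapk14, chr17:28747847-28747876, plus strand: ttgtgctatataaGGACccatatttaagct
Jak1, chr4:101153167-101153196, minus strand: gctgcatagcaaaGGACtgtgccgctggca
The shared bases held 9 copies of GGAC in *Mapk14*, 8 in *Fcgr1*, 7 in *Ctsz*, 5 each in *Mrps34* and *Pld1* and 3 in *Jak1*. A copy of the motif is a description of the sequence, and the lists do not show which base was methylated.

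The first comparison asked how many regions followed the genotype. WT-only regions made up 3.32% of the 12350 regions, and the reverse pattern (KO-only), with peaks of KO-1 and KO-2 and none of a WT mouse, was found in 765 regions or 6.19%. The other ways to divide the lists into 2 and 2 set a WT and a KO list against the other pair. WT-1 with KO-1 alone held 295 regions (2.39%) and WT-2 with KO-2 alone 374 (3.03%). WT-1 with KO-2 alone held 306 regions (2.48%) and WT-2 with KO-1 alone 324 (2.62%). The KO lists were longer, with 6378 peaks in KO-1 and 6684 in KO-2 against 6159 in WT-1 and 6263 in WT-2. With all lists held to the 6159 peaks of highest score there were 432 WT-only regions, and the regions that could be placed on a transcript numbered 394 for WT-only and 555 for KO-only, against 376 and 665 with the full lists. These counts are what the rule chose, 4 lists can be divided in 3 ways only, and no test was made. The fraction of regions shared was 0.356 for WT-1 and WT-2, 0.466 for KO-1 and KO-2 and between 0.359 and 0.383 for a WT and a KO list, so that the WT lists shared no more with each other than with a KO list.

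**Figure D1:**
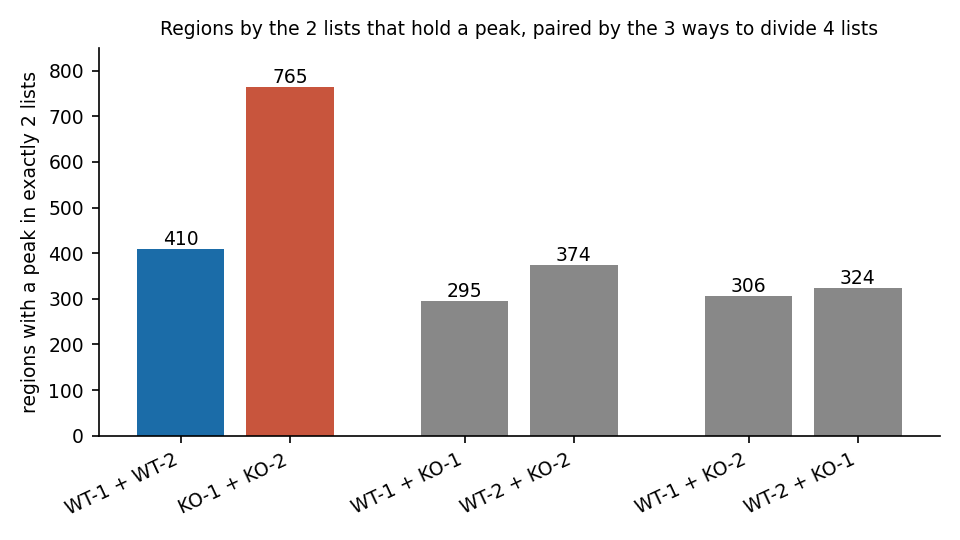
Number of merged regions (y axis) with a peak in exactly 2 of the 4 lists, grouped by the 3 ways to divide the lists. The WT-only bar stands at 410, above the 4 mixed pairs at 295 to 374 and below the KO-only bar at 765.

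Of 3121 regions with a peak in both WT lists, 2711 also had a KO peak. The WT-only regions took 411 peaks of WT-1, or 6.67% of its 6159 peaks, and 413 peaks of WT-2, or 6.59% of its 6263 peaks. In 406 regions each WT list had a single peak, and in the other 4 the highest score of a list was used. The WT peaks of a region shared between 1 and 1680 bp, with a median of 370 bp, and in 333 regions (81.2%) they shared at least 50% of the wider peak.

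Most WT-only regions had modest scores. The score ran from 50.18 to 3100 in WT-1 with a median of 328, and from 52.44 to 3100 in WT-2 with a median of 506. Scores were read as percentiles within a list, the share of its peaks at or below a score. The lower of the 2 percentiles of a region had a median of 22.5, against 48.5 for regions present in all 4 lists, 21.2 for the mixed pairs and 22.4 for KO-only regions. In 67 regions both WT peaks stood at or above the 50th percentile, and in 57 both stood below the 25th. Only *Zc3h13*, *Mrps34*, *Ctsz* and *Rbm33* reached a score of 3100 in both WT lists. The 2 lists often ranked a region differently. The peak on *Clec4e* had a score of 104.8 in WT-1 and 3100 in WT-2, and that on *Mapk14* had 387.7 and 3100.

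**Figure D2:**
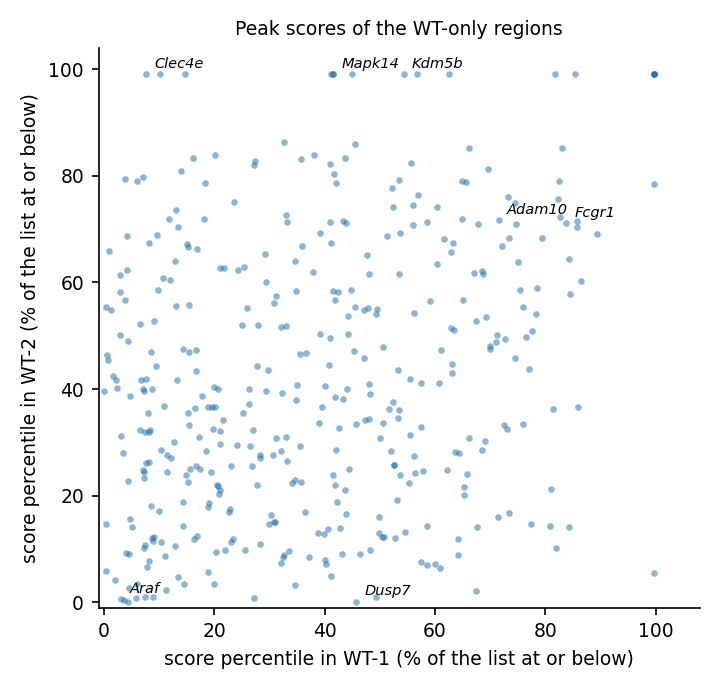
Score percentile of the peak in WT-1 (x axis) and in WT-2 (y axis) for each of the 410 WT-only regions, where 100 is the highest score of a list. Points fill the plane, with *Fcgr1* and *Adam10* above 70 in both lists, *Clec4e*, *Mapk14* and *Kdm5b* at the top of WT-2 only, and *Araf* near 0 in both.

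The second comparison concerned genes. An exon of a protein-coding gene on the same strand was overlapped by 399 of the 410 regions. These lay on 389 genes, 5.50% of the 7069 genes with a peak in any list and 15.4% of the 2531 genes with a region in both WT lists. Of the other 11 regions, 7 lay on processed pseudogenes, whose reads may belong to the parent gene, 3 on non-coding RNAs (*Kcnq1ot1*, *Gm11696* and *1500004A13Rik*) and 1 on no annotated exon. A WT-only region did not mean a gene without KO peaks. Of the 389 genes, 174 (44.7%, Wilson 95% interval 39.9% to 49.7%) had a KO peak elsewhere on the gene, 111 of them in both KO lists, and 64 (16.5%) had a region that all 4 lists shared. The other 215 genes (55.3%) had no KO peak, and for 170 genes the WT-only regions were the only regions. The rule chose stretches without a KO peak, which by itself favours genes without one. No such share is given for the other patterns. Intervals of shares here and below cover counting error only.

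The distance to the nearest KO peak was measured on the same strand, whether or not that peak lay on the same gene. It had a median of 29236 bp on the genome, and it was below 1000 bp for 70 regions and below 100 bp for *Sap30bp* (14 bp), *Kctd3* (26 bp) and *Rbsn* (81 bp). Introns widen this distance, and 220 of the 399 regions lay on genes without a KO peak, where it runs to a peak outside the gene. On the spliced transcript, a KO peak was present for 158 of the 376 regions that could be placed, at a median of 591 bases, and 21 regions lay within 100 bases of it. In 13 of these the KO peak began or ended at the neighbouring base, across an exon junction, among them *Zc3h13*, *Map3k4*, *Kdm5b*, *Brpf1* and *Ankrd11*. Without the 21 regions, an alternative chosen after seeing the data, 389 WT-only regions on 370 genes were left.

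At the edges of the rule, the smallest overlap of WT peaks was 1 bp in *Bsn*, 10 bp in *Pyurf* and 25 bp in *Btbd9*. Just outside it, the WT peaks on *Mfsd6l* lay 3 bp apart and those on *Zfp366* 9 bp apart. A KO peak touched a region of both WT lists by 4 bp in *Ssh1* and by 6 bp in *Zfp456*, which kept these regions out.

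The 20 regions on coding genes with the highest lower percentile are described by name. *Zc3h13*, *Mrps34*, *Ctsz* and *Rbm33* tied at the top, with a score of 3100 that 611 peaks of WT-1 and 785 of WT-2 shared, and their order carries no information. *Zc3h13* is a component of the m6A writer complex. Its region covered the whole of exon 15 of 19, from 75331706 to 75332218 on the plus strand of chromosome 14, with 513 bp of CDS and a score of 3100 in WT-1 and in WT-2. KO-1 and KO-2 had 5 other regions each on the transcript, and the nearest ended at the last base of exon 14, where WT-1 had a peak as well. All 4 lists shared regions on exons 10 and 12 of *Zc3h13*, and exon 15 was the stretch held by the WT lists alone.

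*Mrps34*, a subunit of the mitochondrial ribosome, had a region over the stop codon, with a score of 3100 in each WT list, and it had no other region in any list. The same held for *Ctsz*, a lysosomal cysteine protease also called cathepsin Z, where both WT peaks covered the same 490 bp of the last exon. The region of *Rbm33*, an RNA-binding protein gene, lay in CDS exon 7 of 19 with a score of 3100 in both lists, and a region shared by all 4 lists lay on exon 5 of the same gene.

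*Fcgr1* encodes the high-affinity receptor for IgG and is the best known macrophage gene among the 20. Its region ran over the stop codon, from 96283799 to 96284619 on the minus strand of chromosome 3, with a score of 1965.99 in WT-1 and 1511.02 in WT-2. The WT peaks shared 815 bp, and the nearest KO peak on that strand lay 20487 bp away. WT-2 had a second region further down the 3′-UTR, with a score of 1536.82, and no KO list had a peak on *Fcgr1*.

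*Pld1*, a phospholipase that makes phosphatidic acid, had a region over the stop codon in the last of 27 exons, with scores of 1142.75 in WT-1 and 1842.26 in WT-2. *Adam10*, a membrane protease that sheds surface proteins, had a single region in any list, with its midpoint 354 bases past the start of the stop codon and scores of 1054.67 and 1546.06. *Hnrnpc*, an RNA-binding protein whose access to RNA is altered by m6A, had a stop codon region with scores of 2247.99 and 1466.52. None of these 3 genes had a KO peak.

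*Birc3*, an inhibitor of apoptosis and ubiquitin ligase of NF-κB signalling, had its region in the CDS of exon 2, with scores of 2247.3 in WT-1 and 1539.82 in WT-2. Downstream on the same transcript lay a region of KO-1 in exon 5, 179 bases away, and a region of all 4 lists in exon 7. WT-1, KO-1 and KO-2 shared a further *Birc3* region on an exon outside the longest coding transcript. The other regions among the 20 were those of *Lhfpl2*, *Fam129b*, *Ahsa2*, *Tmem135* and *Zswim9*, with a midpoint in the 3′-UTR, those of *Trim30c*, *Fam133b*, *Zfp644* and *Zfp141*, with a midpoint in the CDS, and those of *Specc1* and *Macf1*, on exons outside the longest coding transcript. *Trim30c* and *Zfp141* belong to families with near-identical members, so reads of these genes may be shared with their copies.

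**Figure D3:**
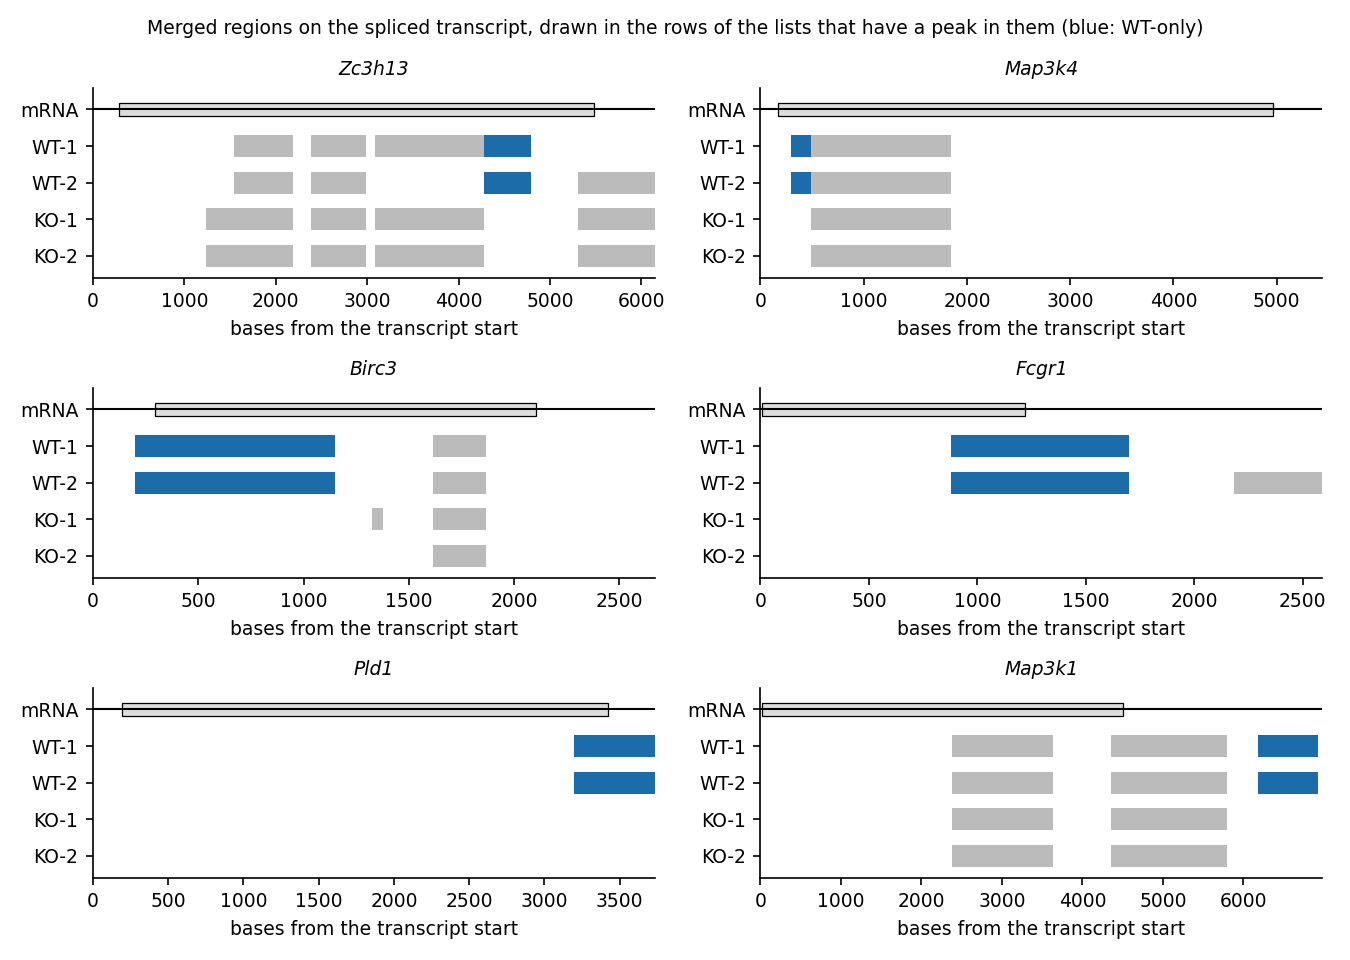
Regions on the spliced longest coding transcript of 6 genes, in bases from its start (x axis), with the CDS as a grey box and a row for each list. Merged regions are drawn at full width in the row of every list with a peak in them, blue for WT-only and grey for others. *Zc3h13* and *Map3k4* show the blue region next to a region that the KO lists have too, and *Fcgr1* and *Pld1* show no region in the KO rows.

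A pair of WT-only regions was carried by 10 genes, *Ptp4a1*, *Sap30bp*, *Zfp72*, *Zbtb20*, *Fam133b*, *Nav2*, *Clcn4*, *Zfp111*, *Ankrd11* and *Zbtb33*. On *Ptp4a1*, a phosphatase, one region lay in the 5′-UTR and the other over the stop codon, and the KO lists had no peak. On *Ankrd11*, a chromatin cofactor, one lay in exon 2 and the other over the stop codon, and each KO list had 2 further regions. *Zbtb20*, a transcriptional repressor, carried both regions deep in its 3′-UTR, 7428 and 10030 bases past the stop codon, where KO-1 had 7 and KO-2 had 6 regions on the gene.

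The third comparison asked where on the transcript the regions lay. Of 376 placed regions, 240 (63.8%, Wilson 95% interval 58.9% to 68.5%) had their midpoint in the 3′-UTR, 128 (34.0%, 29.4% to 39.0%) in the CDS and 8 (2.13%) in the 5′-UTR. The last exon held 286 (76.1%), internal exons 71 (18.9%), first exons 9 and single-exon genes 10. Among internal exons, 48 regions lay in exons of at least 400 bp. The stop codon was overlapped by 170 regions (45.2%), and the start codon by 22 (5.85%).

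The CDS share was lower than in the regions of the mixed pairs. There it was 45.4% (536 of 1181), a difference of -11.3 percentage points (95% interval -16.8 to -5.66, two-sided Fisher's exact test, Benjamini-Hochberg adjusted p = 0.000248 over 5 tests on position and motif). The mixed pairs ranged from 41.2% for WT-2 with KO-2 to 136 of 272 regions for WT-1 with KO-2, all above the WT-only share. Against KO-only regions, with 60.2% (400 of 665), the difference was -26.1 points (-32.0 to -19.9, two-sided Fisher's exact test, adjusted p = 2.41e-15). The size of both differences varied with the lists used, from -6.25 points without WT replicate 1 to -21.1 without KO replicate 2 against mixed pairs (-8.63 without WT replicate 2), and against KO-only regions it fell to -9.95 without KO replicate 1 and -16.9 without KO replicate 2. Leaving out a list also changes which regions form each class, so these values are not the main contrast at another size. The unit of the tests is the region, so that p says nothing about the spread between mice. The same order was present in regions of a single list, where the CDS held 35.7% of those with a WT-1 peak and 35.0% of those with a WT-2 peak, against 45.5% for KO-1 and 40.7% for KO-2. The interval of the WT-only share held both WT values, and genotype and library cannot be told apart. The CDS had a median of 1569 bases for WT-only regions, 1701 for mixed pairs and 1983 for KO-only regions. In the same order, the 3′-UTR had 1488, 1478 and 1361 bases. The part of these lengths in the CDS differences was not tested.

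The last exon held 10.4 points more of the WT-only regions than of the mixed pairs, 76.1% against 65.7% (95% interval 5.08 to 15.2, two-sided Fisher's exact test, adjusted p = 0.000284). The mixed pairs gave 59.3% for WT-1 with KO-1, 62.1% for WT-1 with KO-2, 69.1% for WT-2 with KO-1 and 70.4% for WT-2 with KO-2. The share was thus higher in the pairs with WT-2. Regions of a single list gave 70.0% for WT-1, 72.6% for WT-2, 58.0% for KO-1 and 65.1% for KO-2. Without WT replicate 1 the difference was 3.27 points and its interval held 0. It was 6.24 points without WT replicate 2 and 17.4 points without KO replicate 2, with changed classes each time.

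The stop codon was overlapped by 45.2% of WT-only regions and by 41.6% of mixed pairs, a difference of 3.64 points whose interval held 0 (-2.07 to 9.41, two-sided Fisher's exact test, adjusted p = 0.231). With a WT list left out, the WT-only regions become regions of 1 list, which were narrower (median 371 bp for WT-1 alone and 375 bp for WT-2 alone, against 599 bp for mixed pairs), and the difference was -14.6 points without WT replicate 1 and -12.4 without WT replicate 2. These values are therefore not comparable with the main one, here and for the other differences. Without KO replicate 2 the difference was 8.96 points, against 1561 mixed pairs in place of 1181. With a KO list left out, mixed pairs take in regions that had held both KO lists, and KO-only regions become regions of 1 list. Those values are not comparable with the main one either. Regions of all 4 lists overlapped the stop codon in 51.8% of cases, but they were wider, with a median of 1043 bp against 592 bp for WT-only regions.

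**Figure D4:**
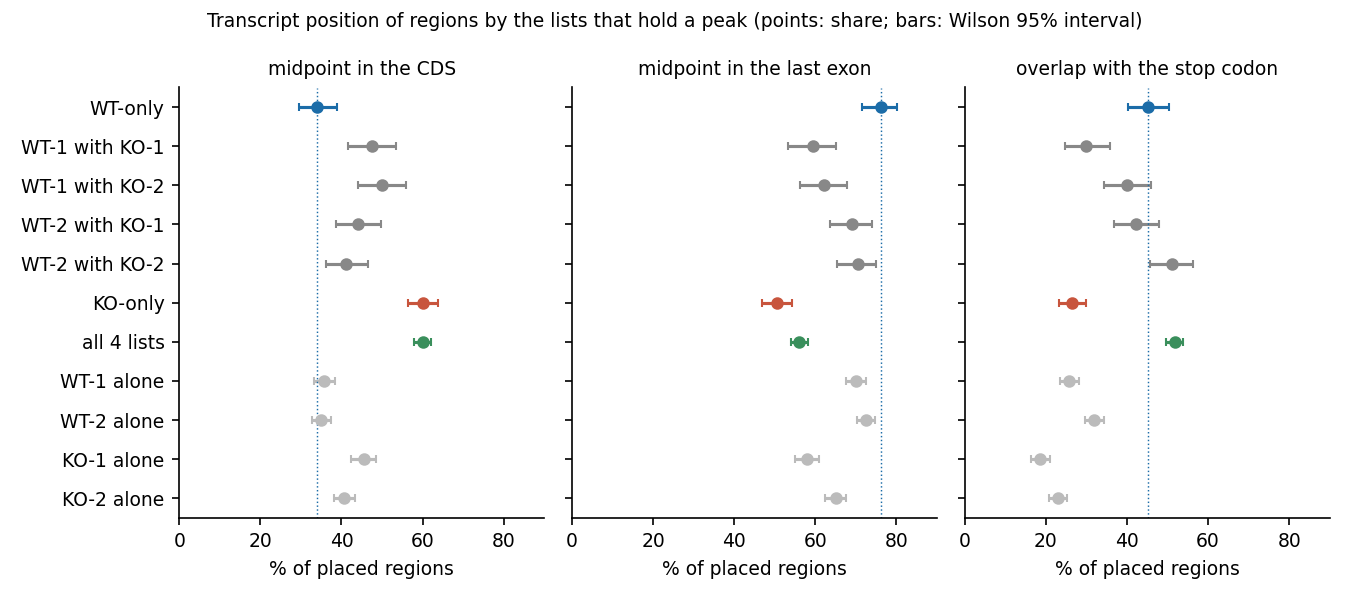
Share of placed regions (x axis, percent) with a midpoint in the CDS, with a midpoint in the last exon, or over the stop codon, for regions grouped by the lists that hold a peak. Points are shares and bars Wilson 95% intervals, and the dotted line marks the WT-only value. For the CDS, the 4 mixed pairs, KO-only and all-4-list regions lie to the right of the WT-only value of 34.0%, and WT-1 alone and WT-2 alone lie close to it.

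WT-only regions reached deep into the 3′-UTR. Their midpoint lay a median of 145.5 bases past the start of the stop codon. It was 13 bases for mixed pairs, from -80 for WT-1 with KO-1 to 74 for WT-2 with KO-1. For KO-only regions it was -446 bases, inside the CDS. Regions of a single list had medians of 119.5 for WT-1, 127 for WT-2, -109 for KO-1 and 60.5 for KO-2, so those of either WT list alone lay near the WT-only value. In the last 50% of the 3′-UTR lay 70 WT-only regions (18.6%, 15.0% to 22.9%), beside 9.65% of mixed pairs, 10.1% of KO-only regions and 2.79% of the regions of all 4 lists. Regions of a single list had between 18.1% in KO-1 and 24.2% in WT-1 there. This difference was noticed in the values and was not tested. Regions with a midpoint in the 3′-UTR of the last exon and no overlap of the stop codon numbered 109 (29.0%), for example on *Mapk14*, *Runx1* and *Cd4*. Mixed pairs had 20.6% there, KO-only regions 18.8%, and regions of a single list between 33.2% in KO-1 and 40.7% in WT-1.

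**Figure D5:**
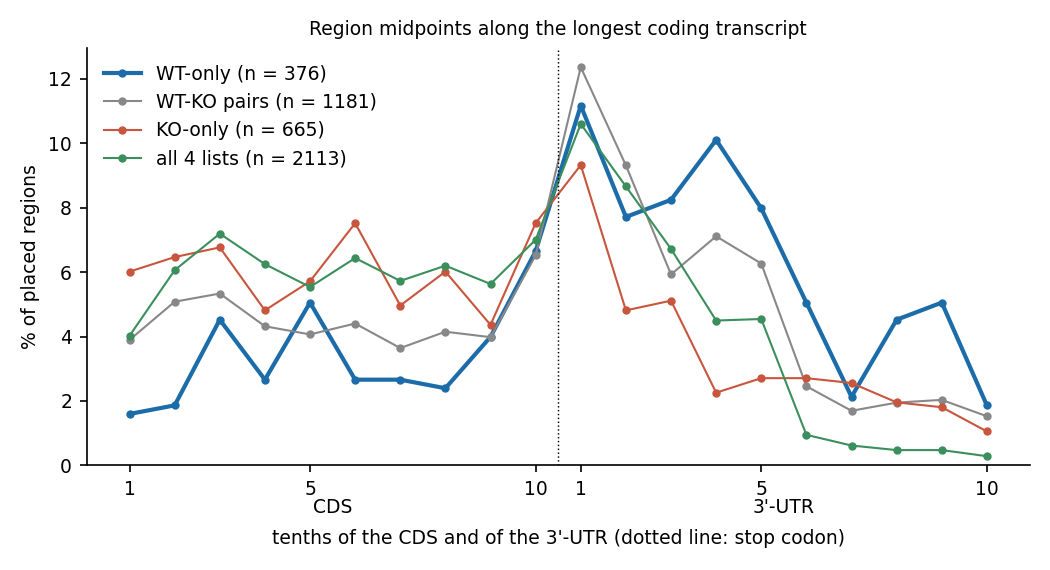
Percent of placed regions (y axis) with a midpoint in each of 10 equal bins of the CDS and 10 of the 3′-UTR (x axis, from the start codon to the end of the transcript). WT-only regions have their highest value, 11.2%, in bin 1 of the 3′-UTR and still 10.1% in bin 4, where regions of all 4 lists have 4.50%. Mixed pairs have 12.4% in bin 1 of the 3′-UTR and 7.11% in bin 4.

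Position differed between WT-only regions on genes with and without a KO peak. On genes without any KO peak, 58.7% of 213 placed regions (Wilson 95% interval 52.0% to 65.1%) overlapped the stop codon and 28.6% lay in the CDS. On genes with a KO peak elsewhere, 27.6% of 163 (21.3% to 34.9%) overlapped the stop codon and 41.1% lay in the CDS. The transcripts of the latter were longer, with a median of 4795 bases against 2957, and the part of length in this contrast was not tested. The rule itself bears on the contrast, because a KO peak over the stop codon of a gene bars a WT-only region there. How much of the contrast the rule accounts for was not tested. The lower score percentile had a median of 20.9 on genes without a KO peak and 23.5 on genes with one.

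GGAC, searched on the transcript strand, was present in the central 200 bases of 248 WT-only regions (66.0%, 61.0% to 70.6%). It was present in 62.4% of mixed pairs, 64.7% of KO-only regions, 60.4% of the regions of all 4 lists and 61.2% of all 10974 placed regions. The difference from mixed pairs was 3.55 points (-2.08 to 8.94, two-sided Fisher's exact test, adjusted p = 0.231). With changed classes, it was -1.40 points without WT replicate 1, -2.73 without WT replicate 2 and 4.87 without KO replicate 2. The broader motif DRACH, which includes most GGAC sites, was in 98.7% of WT-only regions and 98.5% of mixed pairs and so separates nothing.

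The last comparison concerned gene functions, by lists of genes read against the 5.50% of all peak genes that carried a WT-only region. They are given as counts, with no test. Beside them, 688 genes (9.73%) carried a KO-only region and 1182 (16.7%) a region of any of the 4 mixed pairs. Among kinases, GTPases and phosphatases of ERK and MAPK signalling, the pathway studied in these macrophages, 7 of 66 peak genes (10.6%) had a WT-only region, and 4 of the 7 had no KO peak. *Mapk14*, the p38α kinase of stress and inflammatory signalling, had a region of 1665 bp in its 3′-UTR, with scores of 387.7 in WT-1 and 3100 in WT-2, and no other region in any list. *Map3k4*, *Map3k5* and *Map3k1* encode kinases upstream of p38 and JNK. The *Map3k4* region lay in exon 2, with scores of 893.41 and 758.24, and a region of all 4 lists began at the first base of exon 3. The *Map3k5* region lay over the stop codon, with scores of 152.69 and 271.66, and was the only region of the gene.

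*Map3k1* had a region in its 3′-UTR, 2047 bases past the stop codon, with scores of 108.1 in WT-1 and 392.06 in WT-2, and all 4 lists shared 2 regions upstream of it. *Araf*, a RAF kinase, had low scores in both lists, 78.79 and 57.8, over the stop codon. *Dusp7*, a phosphatase that inactivates ERK, had scores of 447.67 and 52.44. The lower percentile of these regions was 0.623 in *Araf* and 0.160 in *Dusp7*. Of the wider MAPK list printed by the study, 9 of 135 peak genes (6.67%) had a WT-only region, with *Nlk* and *Insr* beside the 7 genes of the shorter list. *Spred2*, which the study followed, had peaks in both WT lists, 1 in WT-1 and 2 in WT-2, and none in KO-1 or KO-2. It had no WT-only region, because the rule asks for overlap and the WT-1 peak shared no base with either WT-2 peak.

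Interferon and JAK-STAT signalling had 5 of 46 peak genes (10.9%). *Jak1*, a kinase of cytokine receptors, had a region over the stop codon with scores of 136.41 in WT-1 and 1123.14 in WT-2, and no other region in any list. *Cish*, an inhibitor of cytokine receptors, had scores of 427.69 and 297.79. *Irf3* and *Ifih1*, a transcription factor and an RNA sensor of the antiviral response, had 110.41 and 638.82 and 101.71 and 293.9, and both had a KO peak elsewhere. NF-κB and Toll-like receptor signalling had 1 of 53 (1.89%), *Pdlim2*, which targets the p65 subunit for degradation. *Birc3*, described above, acts in the same pathway and is not in that list.

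Among macrophage surface receptors, 3 of 41 peak genes (7.32%) had a WT-only region, *Fcgr1*, the scavenger receptor *Msr1* and the lectin *Clec4e*. Macrophage transcription factors had 3 of 81 (3.70%), with *Srebf2*, the regulator of sterol synthesis, and *Zeb2* and *Runx1*, which shape myeloid development. *Srebf2* had no KO peak, whereas KO-1 and KO-2 had 8 and 9 other regions on *Zeb2* and 4 each on *Runx1*. PI3K, FOXO and mTOR signalling had 4 of 49 (8.16%), with *Pik3cd*, the leukocyte PI3K subunit, at scores of 1308.79 in WT-1 and 696.45 in WT-2 over the stop codon, and with *Inpp4b*, *Inppl1* and *Insr*.

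Genes of m6A and mRNA decay had 7 of 64 (10.9%). Beside *Zc3h13* and *Hnrnpc*, these were *Ago2* and *Ago1*, which carry microRNAs to their targets, and *Cnot2*, *Tob1* and *Tob2*, which belong to or recruit the CCR4-NOT deadenylase. The *Ago2* region lay 9502 bases past the stop codon, with scores of 1386.29 in WT-1 and 716.42 in WT-2. *Cnot2* had scores of 382.08 and 1281.71 over the stop codon and no other region. *Tob1* had its region over the CDS and the stop codon of exon 2, with 108.74 and 312.82, and no other region.

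Lysosome and autophagy genes had 6 of 49 (12.2%), among them *Ctsz*, *Tecpr1*, *Ulk2*, *Ambra1* and *Gaa*. *Ulk2*, a kinase that starts autophagy, had scores of 517.64 in WT-1 and 413.99 in WT-2 for the only region of the gene. Chromatin regulators had 8 of 130 (6.15%), of which *Kdm5b*, a histone demethylase, had scores of 581.13 in WT-1 and 3100 in WT-2, and *Baz1b*, a chromatin remodelling subunit, 416.17 and 2612.22. *Dot1l*, a histone methyltransferase, had 163.07 and 172.99. Of these 8, only *Dot1l* and *Pcgf5*, a Polycomb subunit, had no KO peak on the gene. Cell cycle and DNA repair had 4 of 75 (5.33%), *Espl1*, *Stag1*, *Ccna2* and *Incenp*.

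Broader families lay on both sides of the background. Zinc finger proteins, led by *Zc3h13* and *Zfp644*, had 22 of 367 (5.99%), of which 3 had no KO peak. The ubiquitin system had 12 of 224 (5.36%), led by *Trim30c* and *Trim56*, a ligase of antiviral signalling with scores of 703.23 in WT-1 and 1087.66 in WT-2. GTPase regulators had 6 of 135 (4.44%), led by *Rab8b*, a vesicle transport GTPase with 845.98 and 2861.68. Solute carriers had 9 of 139 (6.47%), led by *Slc13a3*, a dicarboxylate transporter with 418.62 and 1516.23, and 7 of the 9 had no KO peak. Motor and cytoskeleton genes had 4 of 50 (8.00%), with *Macf1* first, and RNA-binding and splicing genes 7 of 118 (5.93%), with *Rbm33* first. Phosphatases had 9 of 87 (10.3%), led by *Ppm1g* with 906.97 and 1496.58, and ribosomal and respiratory genes had 2 of 65 (3.08%), *Mrps34* and *Mrpl43*.

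The other patterns of the same lists put these counts in context. ERK and MAPK signalling had a WT-only region on 7 genes, a KO-only region on 7 and a mixed pair on 12. Genes of m6A and mRNA decay had 7, 7 and 10 in the same order, and PI3K, FOXO and mTOR signalling 4, 6 and 7. More genes with a WT-only than with a KO-only region were found in interferon and JAK-STAT signalling (5 and 1, with a mixed pair on 6), among lysosome and autophagy genes (6 and 4, mixed 7), macrophage surface receptors (3 and 2, mixed 6), solute carriers (9 and 7, mixed 19) and markers of other cell types (1 and 0, mixed 4). The wider MAPK list had 9, 12 and 26, and NF-κB and Toll-like receptor signalling 1, 1 and 10. Phosphatases had 9, 9 and 11.

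Fewer genes with a WT-only than with a KO-only region were found among zinc finger proteins (22 and 66, mixed 67), cell cycle and DNA repair (4 and 16, mixed 11) and chromatin regulators (8 and 21, mixed 38). The same held for the ubiquitin system (12 and 24, mixed 36), GTPase regulators (6 and 14, mixed 36), RNA-binding and splicing genes (7 and 11, mixed 19) and ribosomal and respiratory genes (2 and 9, mixed 10). Macrophage transcription factors had 3, 6 and 22, and motor and cytoskeleton genes 4, 7 and 8. Over all peak genes the order was 389, 688 and 1182, and no difference between lists was tested.

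In all, 116 of the 389 genes were in a list and 273 in none.

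Of the markers of other cell types, 1 of 12 peak genes had a WT-only region. This was *Cd4*, the co-receptor of helper T cells, in the 3′-UTR of exon 10, with scores of 296.36 in WT-1 and 1606.5 in WT-2 and no KO peak. *Cd3d*, *Cd3e* and *Cd3g*, which define T cells, had no peak in any list, and the part of other cells in the WT-only regions was not tested.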

How the data were processed

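The 8 libraries comprised 4 m6A IPs and their 4 inputs, from BMDMs of 2 mice per genotype. The authors deposited 1 peak list per mouse, whose only measurement is a peak score from peak calling. The submitters' processing notes name cutadapt 1.9.3, HISAT2 2.0.4 and the build mm10 (GRCm38). The peak caller and its settings are not given in the sources used here, and the names of the peaks have the form that MACS writes. No reads or counts were used, so the depth is unknown and scores were only ranked within a list. No listed position lay past the end of its GRCm38 chromosome.

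Peaks were merged as described, assigned to the protein-coding gene of GENCODE M21 with the largest exon overlap on the same strand, and placed by their midpoint on its longest coding transcript (the longest CDS, then the longest transcript). Shares have Wilson 95% intervals and differences Newcombe 95% intervals. Position and GGAC were compared by the two-sided Fisher's exact test with Benjamini-Hochberg adjustment over 5 tests and a threshold of 0.05. The presence of peaks chose the regions and was not tested. Mice in a genotype are separate samples per the labels, and the tests do not cover the spread between them.

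The regions, the gene lists and the rules were chosen with earlier results of these data known. Genes are named if their region was among the 20 with the highest lower score percentile, if they carried 2 regions, if they were in a gene list, or if they lay at the edge of the rule. *Mettl3* and *Spred2* are named as the genes deleted and followed by the study. Names within a list follow the same percentile, 2 to 6 per list, except that lists of 7 to 9 genes on MAPK signalling and m6A were named beyond 6 and that *Dot1l* and the genes next to a KO peak across a junction were picked after their values were seen. The alternatives tried used the top 50% of each list by score, equally long lists (6159 peaks), distances of 100 bp (on the genome or, chosen after seeing the data, on the transcript), shared widths of 50%, a replicate block, 1 region per gene, genes with a single coding transcript, counts of coding bases, DRACH, whole regions, and each list left out in turn. Merging and placement were tested on simulated data, where 100% of 3000 regions and of 1500 positions were recovered. Scripts ran under Python 3.11.15 with matplotlib 3.10.9, pysam 0.24.0, scipy 1.17.1 and numpy 2.4.6. Sequences are from the GRCm38 genome of RefSeq. Some genes that the rule names are not reported here.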

Additional observations from a re-analysis of the deposited data

How the results depend on the processing

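Of 93 alternative values, 64 kept their direction and side of the threshold or moved little, 16 moved, 2 became stronger, 4 became weaker and 7 changed sign. Using only the top 50% of each list by score left 164 WT-only regions on 157 genes, 33.8% of which had a KO peak elsewhere. The last exon difference from mixed pairs was then 9.51 points (Fisher's exact test, adjusted p = 0.0591) and that of GGAC -2.76 points. With each list left out in turn, WT-only regions ranged from 647 to 2127, their genes from 604 to 1868 and the share with a KO peak elsewhere from 38.9% to 51.2%, since presence or absence then rests on 1 list. The classes change with the list left out. The differences from mixed pairs then ranged from -14.6 to 8.96 points for the stop codon, from 3.27 to 17.4 for the last exon and from -2.73 to 4.87 for GGAC. In genes with a single coding transcript, which are fewer, the CDS difference was -11.9 points and the last exon difference 11.3 points, both with an adjusted p of 0.0539 by Fisher's exact test. The CDS difference from KO-only regions kept its sign and its side of the threshold under every alternative that tested it. Other causes were not tested.

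With the replicate block, 1 same-numbered pair with a WT peak and no KO peak sufficed, unless the other pair had a KO peak alone. There were 4198 such regions on 3383 genes. They took in the 241 regions of both WT lists and KO-1 and the 267 of both WT lists and KO-2. A KO peak, in such a region or elsewhere, was present on 53.1% of these genes, so this share is not comparable with the main one. The stop codon difference was then -7.86 points and that of GGAC -0.253 points. The labels do not say that a number marks a litter or batch, and the WT-1 minus WT-2 and KO-1 minus KO-2 differences in presence correlated at 0.00733 over 12350 regions, which are not independent. Without read counts, weak peaks near the threshold of the peak calling cannot be told from absent ones.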
